A study of Mus musculus with 10 samples.

Results

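Potassium channel genes were compared between the epithelium of the palatal gingiva, the gum on the side of the palate, and that of the buccal gingiva, the gum on the side of the cheek, in mice. They were every gene of the deposited count table whose symbol begins with Kcn and whose count cells are not blank (0 included), with antisense, overlapping-transcript and pseudogene names left out, which gave 94 of 49164 genes. The set divides by symbol into 40 voltage-gated, 15 inward rectifier, 14 two-pore and 8 calcium-activated channel genes, and 17 auxiliary subunit and other genes. The calcium-activated class takes in Kcnt1, Kcnt2 and Kcnu1, related genes whose channels sodium or pH gate, none of which passed the count filter. The data were polyadenylated RNA reads from 5 palatal and 5 buccal libraries of epithelium that had been released with the protease Dispase and lifted off. The labels give neither strain, genotype, age nor sex, nor whether a library holds 1 mouse or a pool. The series' design text speaks of pooled germ-free and specific-pathogen-free mice, but which of these the 10 libraries came from is not in their labels. The libraries are not labelled as coming from different mice, and the p-values cover no more than the spread among these 10, part of which may be technical.

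Potassium channels let potassium leave or enter the cell along its gradient and so set the resting membrane potential. Voltage-gated channels open on depolarisation, inward rectifiers pass current best near or below the potassium equilibrium potential, two-pore channels carry background leak, and calcium-activated channels open when calcium rises inside the cell. In keratinocytes, membrane potential bears on calcium entry, and calcium drives their differentiation.

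Total counts were 25868777 to 35583168 per palatal library and 29317011 to 37234192 per buccal library. The Kcn genes together held 0.0308% to 0.0323% of the counts in palatal and 0.0269% to 0.0296% in buccal libraries. Keratinocyte markers dominated both sides, with 10 listed markers summing to 79082 to 87809 CPM (counts divided by the library size, scaled by the TMM method and expressed on the usual CPM scale) in palatal and 121768 to 141400 CPM in buccal libraries. By edgeR's test 4 of them were higher and 4 lower in palatal, against 18.7% and 20.3% of all genes tested. Most of the sum was keratins that differed in opposite directions. Mean levels of Krt13 and Krt4 were 34511 and 13853 CPM in palatal and 58477 and 57984 CPM in buccal libraries. Those of Krt10 and Krt14 were 18347 and 9906 CPM in palatal and 4009 and 5109 CPM in buccal libraries. All 10 libraries separated by side on the first principal component. No pair of libraries from 1 side agreed within counting noise (chi-square per degree of freedom at least 7.61 in palatal and 15.7 in buccal pairs).

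Most potassium channel genes that passed the count filter differed in level between palatal and buccal gingival epithelium. Of the 94 genes, 26 passed the count filter, and 19 of these passed a false discovery rate of 0.05, 11 higher and 8 lower in palatal libraries (quasi-likelihood F-test in edgeR, p-values adjusted by Benjamini and Hochberg's method over 14062 genes, n = 5 per side). Over all genes tested, 38.9% passed, 18.7% higher and 20.3% lower in palatal; among the tested Kcn genes 73.1% did. A difference of at least 2-fold was found for 12 of the 26, 7 higher and 5 lower, against 10.2% of all genes. The palatal and buccal libraries did not overlap for 16 of the 26, against 28.3% of all genes. The largest difference was that of the calcium-activated channel gene Kcnn3, at 10.6 ± 1.10 CPM in palatal and 0.0906 ± 0.0637 CPM in buccal libraries (SD, n = 5 each).

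These shares cover only the members that passed the count filter, which asks for about 10 counts in at least 5 libraries. A gene that met it in the palatal libraries alone was likely to differ. It was met in all 5 palatal but not in all 5 buccal libraries by 7 members, among them Kcnf1, Kcnh6, Kcnj12, Kcnk16, Kcnn3 and Kcnrg, and in all 5 buccal but not in all 5 palatal ones by Kcnn4. Of the 18 members that met it in every library, 12 passed the test, 5 higher and 7 lower, and 5 of these differed at least 2-fold. Over all 12686 genes that met it in every library, 38.1% passed, 18.4% higher and 19.7% lower, and 7.18% passed with at least a 2-fold difference. The median log2 fold change (palatal minus buccal) was 0.20 over the 26 tested Kcn genes and 0.01 over all genes tested, and the median absolute value was 0.83 and 0.22.

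**Figure D1:**
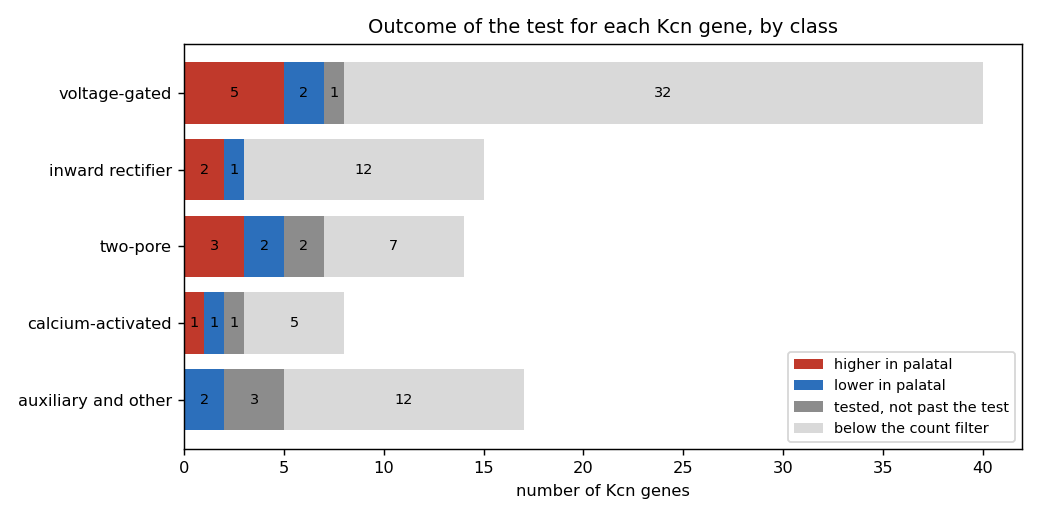
Number of Kcn genes in each class by outcome of the palatal against buccal comparison, as stacked bars. In every class most genes were below the count filter, except among two-pore channels, where 7 of 14 were tested, and no tested auxiliary gene was higher in palatal libraries.

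The members with the largest differences and a single transcription start listed by RefSeq are shown first by the 250 bases before that start (build GRCm38.p6, 5′ to 3′ on the strand of the gene), since this is the proximal promoter of the genes that the results turn on. Kcnn3 (chr3:89519914-89520163, plus strand), Kcnf1 (chr12:17176889-17177138, minus strand) and Kcnj12 (chr11:61065554-61065803, plus strand) were higher and Kcnn4 (chr7:24370013-24370262, plus strand) was lower in palatal libraries. Capitals mark a match, on either strand, to 1 of 6 motifs: TATAAA of the TATA box, TAATTA of homeodomain factors, GGGCGG of the GC box, TGANTCA of AP-1, CANNTG of the E-box, and CCAAT of the CCAAT box.
Kcnn3: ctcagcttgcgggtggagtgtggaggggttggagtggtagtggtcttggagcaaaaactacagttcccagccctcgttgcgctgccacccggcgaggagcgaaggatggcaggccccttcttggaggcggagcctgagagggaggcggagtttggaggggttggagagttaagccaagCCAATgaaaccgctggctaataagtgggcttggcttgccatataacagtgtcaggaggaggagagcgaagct
Kcnf1: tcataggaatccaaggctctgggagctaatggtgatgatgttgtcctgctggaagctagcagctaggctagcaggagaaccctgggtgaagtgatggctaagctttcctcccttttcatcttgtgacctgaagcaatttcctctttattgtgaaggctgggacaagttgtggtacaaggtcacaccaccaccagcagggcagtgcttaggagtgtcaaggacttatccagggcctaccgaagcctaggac
Kcnj12: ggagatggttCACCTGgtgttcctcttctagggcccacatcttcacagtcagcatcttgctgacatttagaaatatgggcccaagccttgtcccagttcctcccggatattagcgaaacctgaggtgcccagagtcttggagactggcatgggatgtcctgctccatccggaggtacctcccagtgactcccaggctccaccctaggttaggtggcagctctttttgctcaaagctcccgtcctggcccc
Kcnn4: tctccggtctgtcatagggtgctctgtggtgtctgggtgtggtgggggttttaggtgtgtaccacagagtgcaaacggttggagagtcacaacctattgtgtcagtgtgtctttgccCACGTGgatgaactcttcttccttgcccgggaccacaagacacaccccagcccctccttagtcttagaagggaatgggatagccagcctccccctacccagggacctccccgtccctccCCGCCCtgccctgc

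No motif is shared by the 3 genes that were higher. The Kcnn3 window holds 1 CCAAT match, the Kcnj12 window 1 CANNTG match, and the Kcnf1 window none of the 6 motifs. The Kcnn4 window holds 1 CANNTG and 1 GGGCGG match. Over the 32817 windows of the same length in the RefSeq table, 33.8% hold CCAAT, 66.2% CANNTG, 32.7% GGGCGG, 12.4% TATAAA, 6.8% TGANTCA and 4.8% TAATTA. The number of CpG dinucleotides was 10 in Kcnn3, 1 in Kcnf1, 4 in Kcnj12 and 6 in Kcnn4, against a median of 6 over all windows. A RefSeq window was listed for 22 of the 26 tested Kcn genes.

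Among voltage-gated channel genes, 7 of the 8 tested passed, 5 higher and 2 lower in palatal libraries, against 38.9% of all genes tested. Of the higher ones, Kcnf1 and Kcnh6 were among those that met the count filter in full only in palatal libraries, so they were likely to differ. The largest difference in this class was that of Kcnf1 (ENSMUSG00000051726), which encodes an electrically silent subunit that modifies other voltage-gated channels. It stood at 4.37, 4.37, 4.20, 3.55 and 3.39 CPM in palatal libraries 1 to 5, against 0.290, 0.296, 0.226, 0.380 and 0.319 CPM in buccal libraries 1 to 5. The lowest palatal library was above every buccal one, with a log2 fold change of 3.70 ± 0.17 (SE; edgeR adjusted p = 6.36e-10, n = 5 per side).

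Another silent subunit gene, Kcnv1 (ENSMUSG00000022342), went the other way. Its levels were 7.85, 7.21, 7.65, 8.25 and 9.35 CPM in palatal and 16.8, 23.3, 19.7, 20.7 and 20.6 CPM in buccal libraries 1 to 5. All 5 palatal libraries were lower, by a log2 fold change of -1.33 ± 0.10 (SE; edgeR adjusted p = 7.39e-08). The silent subunit gene Kcns1 was higher in palatal, with 9.14 ± 0.970 CPM there and 5.62 ± 1.47 CPM in buccal libraries (SD, n = 5) and a log2 fold change of 0.70 ± 0.15 (SE; edgeR adjusted p = 0.00222). The palatal and buccal ranges of Kcns1 did not overlap. In all, 3 genes of silent subunits were tested, Kcnf1 and Kcns1 higher and Kcnv1 lower in palatal. On the scale of CPM per kilobase of annotated exon, the palatal levels of Kcnv1, Kcns1 and Kcnf1 were 1.76, 3.37 and 0.830, and the buccal levels 4.41, 2.07 and 0.0631. Kcns1 had the highest mean of the 3 in palatal and Kcnv1 in buccal libraries, on this scale and in CPM.

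An M-type channel gene, whose product opens slowly at voltages near rest, was lower in palatal. Kcnq5 (ENSMUSG00000028033) had 3.51, 4.79, 3.78, 4.26 and 5.05 CPM in palatal and 13.4, 12.0, 12.4, 9.95 and 8.89 CPM in buccal libraries. Every palatal library was below every buccal one, with a log2 fold change of -1.40 ± 0.13 (SE; edgeR adjusted p = 1.06e-06). Per kilobase of annotated exon its mean level was 0.556 CPM in palatal and 1.47 CPM in buccal libraries.

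Of the ether-a-go-go family, Kcnh1 and Kcnh6 were tested. Kcnh1 (ENSMUSG00000058248) held most of the class, with 69.7% of its summed CPM in palatal and 61.3% in buccal libraries. It had 82.8, 85.4, 89.0, 73.1 and 84.1 CPM in palatal and 72.7, 70.4, 75.0, 73.2 and 75.7 CPM in buccal libraries 1 to 5. Palatal library 4 lay within the buccal range and the other 4 above it. The log2 fold change was 0.18 ± 0.06 (SE; edgeR adjusted p = 0.0358). The call was lost without any 1 of palatal libraries 1, 2, 3 and 5 or buccal libraries 1, 2 and 4 (log2 fold changes of 0.16 to 0.18, edgeR adjusted p from 0.0543 to 0.0867), with unscaled library totals (0.13, adjusted p = 0.129) and without the count filter (0.18, adjusted p = 0.0983).

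Kcnh6 (ENSMUSG00000001901), of the same family, was close to the lower limit of measurement. Its values were 0.563, 0.606, 0.536, 0.558 and 0.650 CPM in palatal and 0.290, 0.131, 0.226, 0.104 and 0.266 CPM in buccal libraries, or 87 and 33 counts in all. The groups did not overlap, and the log2 fold change was 1.48 ± 0.27 (SE; edgeR adjusted p = 0.000554). Summed over the 40 genes, the class stood at 118.9 ± 7.45 CPM in palatal and 119.8 ± 1.57 CPM in buccal libraries (SD, n = 5), so members differed between the sides while their sum covered overlapping ranges, 106.4 to 125.8 CPM in palatal and 118.0 to 122.0 CPM in buccal libraries.

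**Figure D2:**
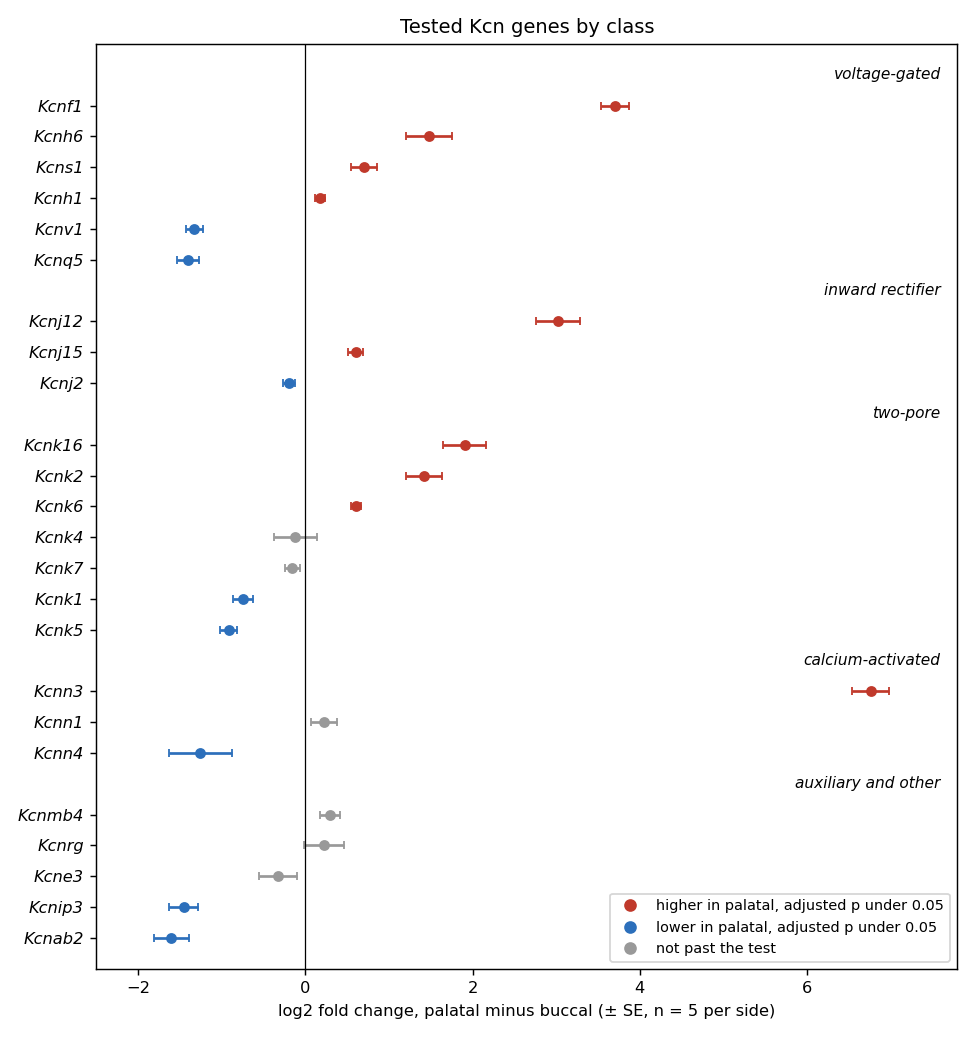
Log2 fold change (palatal minus buccal) of 24 tested Kcn genes with its standard error (n = 5 per side), grouped by class; red genes were higher and blue genes lower in palatal at an edgeR adjusted p under 0.05, and grey genes did not pass. Kcnn3 stands farthest to the right at 6.76, followed by Kcnf1 at 3.70 and Kcnj12 at 3.02, and Kcnab2 farthest to the left at -1.60.

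All 3 tested inward rectifier genes passed, 2 higher and 1 lower in palatal, against 38.9% of all genes tested. Of these, Kcnj12 met the count filter in full only in palatal libraries and so was likely to differ. Kcnj12 (ENSMUSG00000042529), which encodes a strong inward rectifier of the group that holds excitable cells at rest, had the largest difference. It had 1.79, 2.90, 2.48, 2.15 and 2.31 CPM in palatal and 0.0965, 0.296, 0.354, 0.415 and 0.266 CPM in buccal libraries 1 to 5. The lowest palatal library was above the highest buccal one, and the log2 fold change was 3.02 ± 0.26 (SE; edgeR adjusted p = 3.76e-07). Over the side it had 351 counts in palatal and 45 in buccal libraries.

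Kcnj15 (ENSMUSG00000062609), an inward rectifier gene expressed in epithelia such as the kidney, held most of the class, with 72.2% of the summed CPM in palatal and 62.4% in buccal libraries. Its levels were 55.1, 51.2, 53.7, 65.6 and 69.3 CPM in palatal and 38.4, 42.1, 37.6, 37.1 and 39.2 CPM in buccal libraries 1 to 5. The groups did not overlap, and the log2 fold change was 0.60 ± 0.09 (SE; edgeR adjusted p = 5.65e-05). Kcnj2 (ENSMUSG00000041695), a close relative of Kcnj12, had 19.6, 18.3, 19.0, 19.6 and 21.9 CPM in palatal and 23.9, 23.1, 21.5, 23.2 and 20.8 CPM in buccal libraries.

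For Kcnj2 the groups overlapped through palatal library 5, and the log2 fold change was -0.19 ± 0.07 (SE; edgeR adjusted p = 0.0396). That call was lost without any 1 of palatal libraries 1 to 4 or of buccal libraries 1 to 4 (log2 fold changes of -0.21 to -0.17, edgeR adjusted p from 0.0512 to 0.0984), with upper-quartile scaling (-0.18, adjusted p = 0.0554) and without the count filter (-0.19, adjusted p = 0.135). Between these relatives the ratio of mean CPM in palatal over buccal was 8.15 for Kcnj12 and 0.874 for Kcnj2. The class summed to 81.7 ± 9.25 CPM in palatal and 62.4 ± 2.26 CPM in buccal libraries (SD, n = 5), and the 2 ranges did not overlap. Among the 12 inward rectifier genes not tested, Kcnj10 had 25 counts over the palatal and 51 over the buccal libraries, and Kcnj8, the channel subunit gene of pericytes, had 3 and 4.

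Among two-pore channel genes 5 of 7 tested passed, 3 higher and 2 lower in palatal, against 38.9% of all genes tested. Of the higher ones, Kcnk16 met the count filter in full only in palatal libraries and so was likely to differ. Kcnk6 (ENSMUSG00000046410), a weak inward-rectifying leak channel gene, had the highest mean level of all Kcn genes per kilobase of annotated exon, at 17.4 CPM per kilobase in palatal and 11.5 in buccal libraries. Its values were 67.5, 75.4, 66.2, 76.3 and 76.5 CPM in palatal and 48.4, 46.2, 45.9, 47.0 and 50.4 CPM in buccal libraries 1 to 5. All 5 palatal libraries were higher, with a log2 fold change of 0.60 ± 0.06 (SE; edgeR adjusted p = 2.74e-06). Its share of the summed CPM of the class was 73.2% in palatal and 57.5% in buccal libraries.

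The other 2 that were higher, Kcnk16 and Kcnk2, were at low levels. Kcnk16 (ENSMUSG00000023387), whose product is an alkaline-activated leak channel best known from pancreatic beta cells, had 0.894, 1.12, 0.705, 0.956 and 0.613 CPM in palatal and 0.193, 0.263, 0.258, 0.138 and 0.266 CPM in buccal libraries (log2 fold change 1.91 ± 0.26, SE; edgeR adjusted p = 3.52e-05). Kcnk2 (ENSMUSG00000037624), a leak channel gene whose product responds to membrane stretch and to heat, had 1.358, 1.40, 1.24, 1.20 and 1.52 CPM in palatal and 0.418, 0.723, 0.354, 0.656 and 0.373 CPM in buccal libraries (log2 fold change 1.42 ± 0.22, SE; edgeR adjusted p = 0.000121). Neither gene's groups overlapped. Opposite-strand exons of another gene cover 12.2% of the annotated exons of Kcnk2 in GENCODE M21, and the strand setting of the counting is not given in the sources used here.

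Kcnk5 and Kcnk1 were lower in palatal. Kcnk5, which encodes an acid-sensitive leak channel of transporting epithelia, had 6.18 ± 0.849 CPM in palatal and 11.7 ± 1.04 CPM in buccal libraries (SD, n = 5), a log2 fold change of -0.92 ± 0.10 (SE; edgeR adjusted p = 6.31e-06). Kcnk1, the nearest relative of Kcnk6 among those tested, had 4.12 ± 0.459 CPM and 6.95 ± 1.06 CPM (log2 fold change -0.75 ± 0.12 SE, edgeR adjusted p = 0.000191). For both, every palatal library was below every buccal one, so Kcnk6 and Kcnk1 differed in opposite directions.

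Kcnk7 (ENSMUSG00000024936), a member of the Kcnk1 and Kcnk6 group that gives no current on its own in expression systems, did not pass. It had 13.1, 14.2, 12.8, 13.9 and 11.9 CPM in palatal and 16.5, 13.0, 13.3, 16.3 and 14.4 CPM in buccal libraries, with overlapping groups (log2 fold change -0.16 ± 0.09, SE; edgeR adjusted p = 0.177). Kcnk4, a stretch-gated relative of Kcnk2, did not pass either, at 0.623 ± 0.214 CPM in palatal and 0.672 ± 0.149 CPM in buccal libraries (SD, n = 5; log2 fold change -0.12 ± 0.25, edgeR adjusted p = 0.745), and it shares 13.1% of its annotated exons with Catsperz on the same strand. The two-pore class summed to 98.8 ± 5.75 CPM in palatal and 82.7 ± 2.75 CPM in buccal libraries (SD, n = 5), without overlap.

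**Figure D3:**
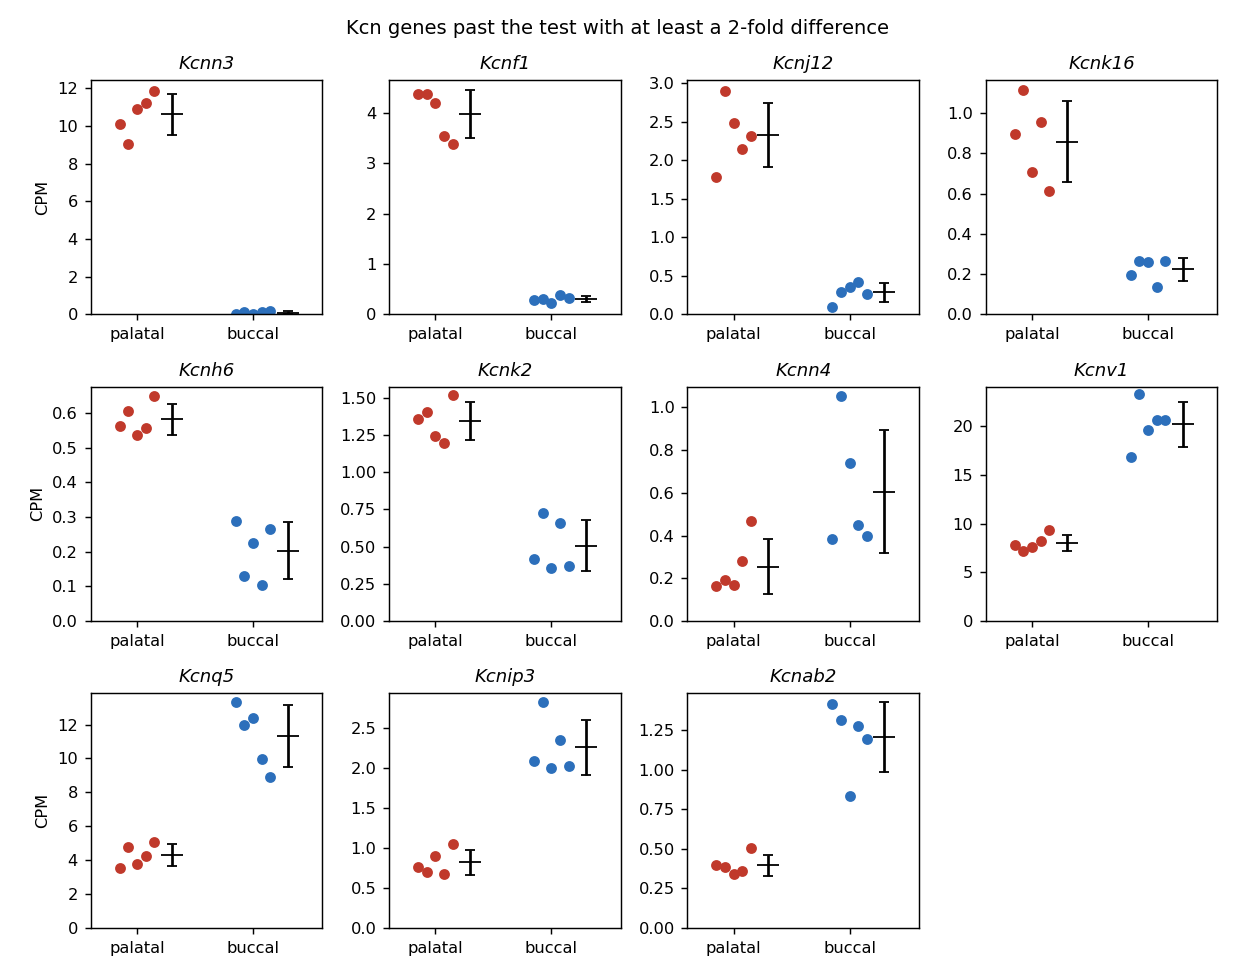
CPM in each library for 11 Kcn genes past the test with at least a 2-fold difference, palatal (red) left of buccal (blue), each point 1 library and each black bar the mean with its SD (n = 5); every vertical axis starts at 0. The groups are apart in 10 panels, while for Kcnn4 the highest palatal library, at 0.469 CPM, lies within the buccal range.

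Of 3 tested calcium-activated channel genes, 1 was higher, 1 lower and 1 did not pass, where 38.9% of all genes tested passed. The higher gene, Kcnn3, met the count filter in full only in palatal libraries, and the lower gene, Kcnn4, only in buccal ones. Both were therefore likely to differ. Kcnn3 (ENSMUSG00000000794) encodes a small-conductance channel that is opened by calcium bound to calmodulin and is best known for the after-potential of neurons. It had 305, 283, 387, 282 and 329 counts in palatal libraries 1 to 5, against 1, 3, 1, 3 and 7 counts in buccal libraries 1 to 5. In CPM these were 10.1, 9.03, 10.9, 11.2 and 11.9 in palatal and 0.0322, 0.0985, 0.0322, 0.104 and 0.186 in buccal libraries. No buccal library came near the palatal range, and the mean CPM was 117-fold higher in palatal. The log2 fold change was 6.76 ± 0.22 (SE; edgeR adjusted p = 2.19e-11), and it kept to 6.56 to 7.24 when any 1 library was left out or the scaling, filter or tool was changed.

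Kcnn4 (ENSMUSG00000054342), the intermediate-conductance channel gene of lymphocytes, red cells and several epithelia, went the other way. It had 5, 6, 6, 7 and 13 counts in palatal libraries 1 to 5, against 12, 32, 23, 13 and 15 counts in buccal libraries 1 to 5. The groups overlapped, at 0.255 ± 0.128 CPM in palatal and 0.605 ± 0.288 CPM in buccal libraries (SD, n = 5), and buccal library 2 was the highest. The log2 fold change was -1.26 ± 0.38 (SE; edgeR adjusted p = 0.0161); it was -0.97 without buccal library 2 (adjusted p = 0.0444) and -1.58 without palatal library 5 (adjusted p = 0.00587).

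Kcnn1 (ENSMUSG00000002908), another small-conductance channel gene, did not pass. It had 1.49, 1.69, 1.52, 1.16 and 1.15 CPM in palatal and 1.32, 1.25, 1.13, 1.17 and 1.17 CPM in buccal libraries, and the groups overlapped (log2 fold change 0.22 ± 0.16, SE; edgeR adjusted p = 0.299). The class had another leading gene on each side. Kcnn3 held 84.3% of the summed CPM in palatal and 4.32% in buccal libraries, and Kcnn1 11.1% and 57.6%. The class summed to 12.6 ± 0.992 CPM in palatal and 2.097 ± 0.290 CPM in buccal libraries (SD, n = 5). Kcnma1, the gene of the large-conductance channel, had 23 counts over the palatal and 17 over the buccal libraries and was not tested.

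Of 5 tested auxiliary and other genes, 2 were lower in palatal and none was higher by edgeR, DESeq2 or limma-voom (1, Kcnmb4, at an unadjusted edgeR p of 0.0308). By edgeR, 38.9% of all genes tested passed, 20.3% lower. Kcnab2 (ENSMUSG00000028931), a beta subunit gene of the Kcna channels, had 0.397, 0.383, 0.339, 0.359 and 0.505 CPM in palatal and 1.42, 1.31, 0.838, 1.28 and 1.20 CPM in buccal libraries 1 to 5. All 5 palatal libraries were lower (log2 fold change -1.60 ± 0.21, SE; edgeR adjusted p = 2.44e-05). Kcnip3 (ENSMUSG00000079056), which encodes a calcium-binding protein that modifies the Kcnd channels and also binds DNA, had 0.762, 0.702, 0.903, 0.677 and 1.05 CPM in palatal and 2.09, 2.82, 2.00, 2.35 and 2.02 CPM in buccal libraries. Its groups did not overlap either (log2 fold change -1.46 ± 0.17, SE; edgeR adjusted p = 1.01e-05).

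Kcnmb4 (ENSMUSG00000054934), a beta subunit gene of the large-conductance calcium-activated channel, had the highest mean of this class. It had 4.04, 3.32, 3.44, 3.51 and 3.64 CPM in palatal and 3.38, 3.02, 2.74, 3.18 and 2.37 CPM in buccal libraries, with 1 buccal library inside the palatal range (log2 fold change 0.29 ± 0.12, SE; edgeR adjusted p = 0.0725). Without buccal library 1 it passed (log2 fold change 0.35, edgeR adjusted p = 0.0432). Opposite-strand transcripts cover up to 20.8% of its annotated exons. Kcne3, a single-span beta subunit gene of epithelial channels, stood at -0.33 ± 0.23 (adjusted p = 0.271) and Kcnrg, a gene for a regulator of channel assembly, at 0.23 ± 0.24 (log2 fold changes, SE; edgeR adjusted p = 0.495).

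The channels that these auxiliary subunits are known to modify were mostly below the filter. None of the 8 Kcna genes was tested, and the most counted of them, Kcna6, had 35 counts over the palatal and 107 over the buccal libraries. The 3 Kcnd genes had 6, 3 and 3 counts over the palatal libraries and 11, 2 and 3 over the buccal libraries for Kcnd1, Kcnd2 and Kcnd3. Kcnq1, a channel that Kcne3 modifies in epithelia, had 49 counts over the palatal and 17 over the buccal libraries.

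**Figure D4:**
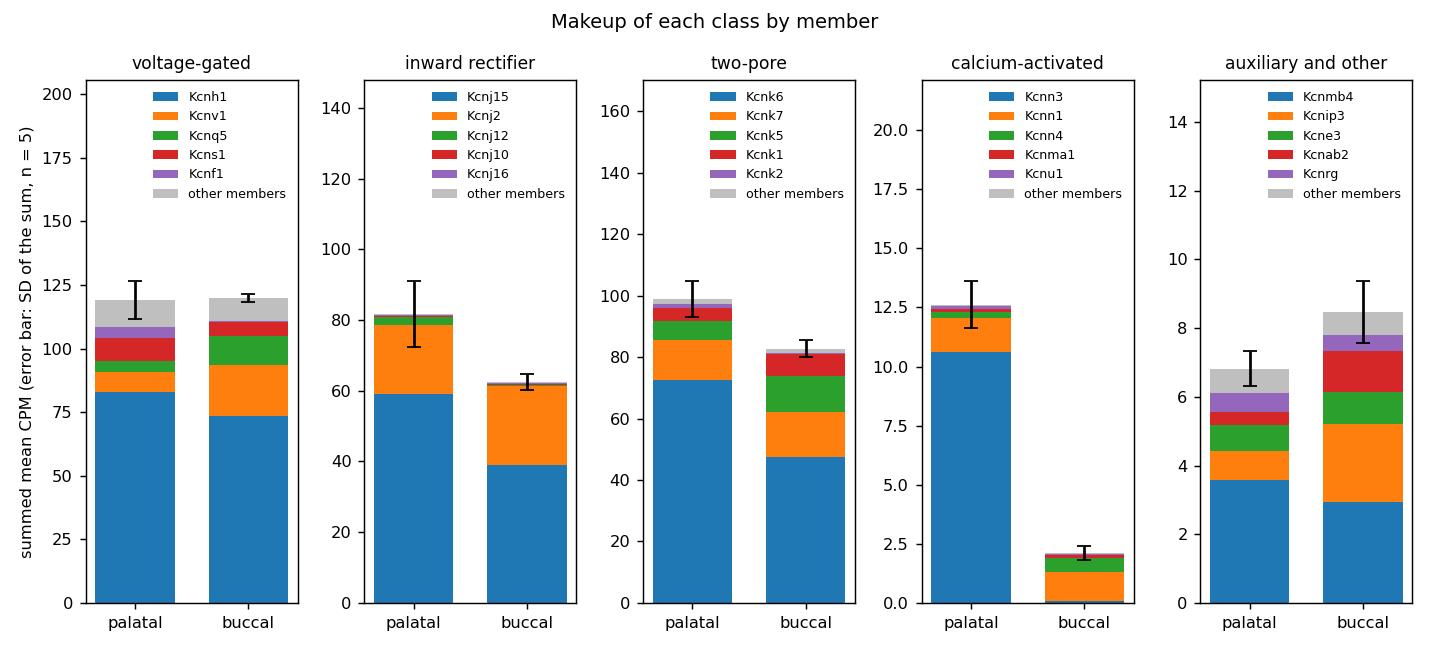
Summed mean CPM of each class, palatal left of buccal, divided by the members with the highest mean, 5 in each class, and all others, with the SD of the sum over 5 libraries as the error bar. Kcnh1, Kcnj15 and Kcnk6 make up most of the first 3 classes on both sides, and Kcnn3 makes up most of the calcium-activated class in palatal libraries but 4.32% of it in buccal libraries.

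The 68 genes that were not tested had 667 counts over the palatal and 651 over the buccal libraries in all, with at most 142 for any 1 gene. No counts were found in any library for 7 of them, Kcna10, Kcng4, Kcnj13, Kcnj4, Kcnj9, Kcnk12 and Kcnk18, and 27 had 1 to 9 counts. When the filter was lifted, 5679 genes of the whole table passed edgeR's test, against 5474 with it. Of the 49164 genes, 19943 had no counts in any library. Among the 68, 8 passed, and no share over all genes below the filter was calculated to set beside this count. Kcnq1, Kcns3, Kcnj5 and Kcnip2 were higher, with 49, 28, 18 and 42 counts over the palatal and 17, 8, 1 and 16 over the buccal libraries. Kcna6, Kcnk13, Kcnk15 and Kcne1l were lower, with 35, 7, 1 and 6 counts over the palatal and 107, 29, 22 and 26 over the buccal libraries (edgeR adjusted p from 0.00365 to 0.0251 for the 8). Kcnq1ot1, the antisense RNA transcribed from within Kcnq1, had 2878 counts over the palatal and 1872 over the buccal libraries. Exon bases shared by Kcnq1ot1 and Kcnq1 were not examined, and whether counting used strand is not known. Whether reads of Kcnq1ot1 entered the counts of Kcnq1 was not tested. The 22 buccal counts of Kcnk15 came from libraries 3, 4 and 5.

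Markers of other cell types moved with the sides. Of 8 listed T cell markers all 6 tested were lower in palatal, and the list summed to 2.62 to 3.38 CPM in palatal and 7.22 to 10.6 CPM in buccal libraries. Of these, Cd2 was below the filter's level in every palatal library, and Cd3g and Cd4 in most. They were tested through the buccal libraries and so were likely to differ. Of 8 macrophage and dendritic cell markers all 7 tested were lower, summing to 15.3 to 20.5 CPM in palatal and 36.6 to 55.7 CPM in buccal libraries. Over all genes tested, 20.3% were lower. Whether leukocytes had a part in the Kcn results was not tested. In bulk RNA, fewer cells of a type and less RNA per cell cannot be told apart.

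Other markers were higher in palatal, beside genes such as Kcnn3, Kcnf1 and Kcnj12. Of 7 tested Merkel cell markers 6 were higher and 1, Sox2, lower, against 18.7% higher over all genes tested. Isl1 and Atoh1 were below the filter's level in every buccal library, and Piezo2, Krt8 and Krt18 in some. These were tested through the palatal libraries and so were likely to differ. The list of 8 summed to 97.9 to 108.1 CPM in palatal and 88.6 to 112.9 CPM in buccal libraries, most of it Sox2. Neuron markers summed to 45.0 to 53.9 CPM in palatal and 10.4 to 14.6 CPM in buccal libraries, nearly all of it Tubb3, and 1 of 2 tested was higher. Below the filter, Rbfox3, Nefl and Prph had 2, 2 and 3 counts over the palatal and 2, 1 and 2 over the buccal libraries. Elavl4, Snap25 and Syt1 had 11, 25 and 28 counts over the palatal and 2, 16 and 21 over the buccal libraries. For Elavl4 every palatal library was above every buccal one in CPM. Fibroblast markers summed to 71.9 to 90.1 CPM in palatal and 7.66 to 14.2 CPM in buccal libraries. Nearly all of the palatal sum was Dcn, at a mean of 73.3 CPM in palatal and 6.61 CPM in buccal libraries. Of 5 tested, 1, Dcn, was higher, and the collagen genes Col1a1, Col1a2 and Col3a1 did not pass the test. The part of these cells in the Kcn results was not tested.

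The sums of the remaining lists overlapped between the sides, although single markers differed. Endothelial markers summed to 4.44 to 8.60 CPM in palatal and 4.96 to 8.57 CPM in buccal libraries, pericyte and smooth muscle markers to 177.7 to 233.6 and 187.7 to 239.6, skeletal muscle markers to 3.36 to 7.49 and 3.60 to 13.8, Schwann cell markers to 37.4 to 49.6 and 44.2 to 49.8, and taste cell markers to 4.14 to 7.34 and 4.29 to 6.82 CPM. Of 3 tested endothelial markers Tie1 was higher and Vwf lower in palatal by edgeR's test, and of 4 tested pericyte and smooth muscle markers Acta2 was lower. Of 7 tested skeletal muscle markers 3 were lower, against 20.3% of all genes tested. They were Acta1, Tnnt3 and Ttn, with log2 fold changes of -2.13, -2.05 and -1.77, and the median of the 7 was -1.77. These 3 were below the filter's level in most palatal libraries, and Tie1 in most buccal ones. Such genes were tested mainly through the other side and so were likely to differ. Buccal library 5 held 127 of the 220 buccal counts of Acta1.

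The taste cell sums came mostly from Plcb2, Tas1r3 and Entpd2, which did not pass. The more specific taste cell genes were below the filter. Gnat3, the taste G protein gene, had 3, 20, 19, 11 and 18 counts in palatal libraries 1 to 5 and none in any buccal library. Trpm5, the taste cation channel gene, had 35 counts over the palatal and 1 over the buccal libraries, with every palatal library above every buccal one in CPM. Pkd2l1 and Otop1, genes of sour-sensing cells, had 8 and 10 counts over the palatal and 1 and 2 over the buccal libraries.

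No salivary gland or melanocyte marker passed the filter. The salivary list summed to 0.397 to 1.88 CPM in palatal and 0.399 to 0.829 CPM in buccal libraries. Its members Aqp5, Muc19 and Dcpp1 had 45, 45 and 73 counts over the palatal and 8, 11 and 15 over the buccal libraries, Bhlha15 and Bpifa2 had 32 and 3 against 54 and 9, and Prol1, Smr3a and Prb1 had none. Melanocyte markers summed to 0.282 to 0.541 CPM in palatal and 0.322 to 0.587 CPM in buccal libraries, and Tyrp1 and Slc45a2 had no counts. The part of taste, gland and muscle cells in the Kcn results was not tested.

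Genes of potassium transport outside the Kcn names were followed through 2 lists. Of 32 pump, cotransporter and regulator genes 19 were tested, and 5 were higher and 4 lower in palatal (47.4% called, against 38.9% of all genes tested; median log2 fold change 0.02, against 0.01). Beta subunit genes of the sodium-potassium pump, which builds the potassium gradient, split, with Atp1b3 lower by a log2 fold change of -0.48 ± 0.07 (edgeR adjusted p = 1.06e-04) and Atp1b1, at 1.503 CPM in palatal and 0.848 CPM in buccal libraries, higher by 0.81 ± 0.27 (adjusted p = 0.0275). The Atp1b1 call was lost without palatal library 2, 4 or 5 or buccal library 1 (log2 fold changes of 0.66 to 0.78, edgeR adjusted p from 0.0525 to 0.0775) and in limma-voom (0.77, adjusted p = 0.0502).

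Among pump modulators, Fxyd5 was lower, at 2.94 ± 0.398 CPM in palatal and 9.61 ± 2.02 CPM in buccal libraries (SD, n = 5), a log2 fold change of -1.71 ± 0.14 (SE; edgeR adjusted p = 3.14e-07), and Fxyd6 was higher by 0.75 ± 0.19 (adjusted p = 0.00513). Slc12a2, the sodium-potassium-chloride cotransporter gene, and Oxsr1, a kinase gene that activates it, were lower by log2 fold changes of -0.25 ± 0.07 and -0.45 ± 0.06 (edgeR adjusted p = 0.00759 and 2.74e-05). Wnk4, a kinase gene upstream of these cotransporters, and Slc12a7, a potassium-chloride cotransporter gene, were higher by 0.27 ± 0.08 and 0.25 ± 0.09 (adjusted p = 0.0129 and 0.0374). The Slc12a7 call was lost without palatal library 1 or 5 or buccal library 3, 4 or 5 (0.21 to 0.25, edgeR adjusted p from 0.0625 to 0.0942), with unscaled totals (0.20, adjusted p = 0.123) and without the filter (0.26, adjusted p = 0.0538).

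Of 18 channel partner genes outside the Kcn names, 6 were tested and 1 passed. Tmem38a, an intracellular cation channel gene, was lower in palatal by a log2 fold change of -0.35 ± 0.09 (SE; edgeR adjusted p = 0.00625). The others tested, Amigo1, Hcn2, Kctd12, Tmem175 and Tmem38b, ran from -0.14 to 0.32 on the log2 scale and did not pass. Abcc8 and Abcc9, whose products pair with inward rectifiers to make ATP-sensitive channels, had 7 and 12 counts over the 10 libraries.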

How the data were processed

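Gingival epithelium RNA was sequenced as single-end reads from stranded libraries, per the labels' protocols. The authors deposited a raw count per gene and library, and DESeq2-normalized values, a signal that, per the file headers and the values, equals the count over a size factor of its library; only the counts were used. Build GRCm39 and the tools HTSeq 2.01, TopHat2 2.1.1, cutadapt 2.10 and DESeq2 1.36.0 are listed, without their roles, per the submitters' processing notes. The counting mode and its use of strand were not given in the sources used here.

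Of 55414 genes, 6250 are blank in every library. Libraries were grouped by tissue label. Genes were kept by filterByExpr (minimum count 10), scaled by TMM and tested two-sided in edgeR (quasi-likelihood F-test, robust fit), and p-values were adjusted by Benjamini and Hochberg's method over 14062 genes (edgeR 4.0.16, limma 3.58.1, DESeq2 1.42.0, R 4.3.3). Fold changes are palatal minus buccal on the log2 scale, and their standard errors were derived from F (absolute fold change over its square root). CPM uses TMM-scaled library sizes. The test was checked on simulated counts. Levels per kilobase use the union of exons in GENCODE M21, an annotation of another build, in which 16 of the 26 tested genes share no exon bases with another gene.

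Genes with values in every library were, in each class, those past the threshold with an absolute log2 fold change of at least 1 and the 2 with the highest mean CPM. Some genes that meet this rule are counted but not reported here by name. The members, lists and tests were chosen with earlier results of these data known. Alternatives were RLE and upper-quartile scaling, library totals, no filter, at least 1 CPM in 5 libraries, DESeq2, limma-voom, the replicate number as a block, a false discovery rate of 0.01, a test against a fold of 1.5, and leaving out each library. The reads carry no molecular identifiers, so counts are not independent molecules.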

Additional observations from a re-analysis of the deposited data

Results flagged for a closer look

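Of the 52 sets of 5 libraries examined for the 26 tested Kcn genes, 1 held a library far from the others: Kcnk4 stood at 0.933 CPM in buccal library 4, where the other 4 buccal libraries ran from 0.579 to 0.657 CPM. Its gap to the nearest library was 0.78 of the range of the group. About 1 set in 20 is picked out in this way by chance.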

How the results depend on the processing

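The count of Kcn genes past the threshold was 10 to 11 higher and 7 to 9 lower when any 1 library was left out, and 4916 to 5399 over all genes. By the test against a fold of 1.5, 1491 of all genes passed, with 7 Kcn genes higher and 5 lower, and 1 inward rectifier, 3 two-pore, 1 calcium-activated and 1 pump or partner gene past the threshold. With at least 1 CPM in 5 libraries, which tests fewer genes, 1 calcium-activated and 1 auxiliary gene passed; at a false discovery rate of 0.01, 1 calcium-activated gene passed. The auxiliary genes past the threshold were 4 without the filter and 4 by DESeq2; the cause was not tested for DESeq2. Apart from these, the counts stayed within 1.5 times the reported values. No fold change of a Kcn gene past the threshold changed sign under any alternative. Alternatives for the pump and partner genes were added after seeing the data. Library totals, without scaling factors, called 2184 genes higher and 3260 lower, against 2624 and 2850. The replicate numbers did not pair the libraries throughout (correlation of deviations -0.02 to 0.33 between libraries of the same number, over 0.1 in 2 of 5 pairs, with 5 of 10 libraries correlating best with their own number). For numbers 1 and 4, at 0.328 and 0.205, both libraries correlated best with their own number. Whether these come from the same mice is not in the labels. With the replicate block 5518 genes passed, 11 Kcn genes were higher and 7 lower, and Kcnj2 no longer passed (edgeR adjusted p = 0.0675). Genes under about 10 counts per library were left out by the chosen filter, and their values rest on few counts.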
